A study of Mus musculus with 18 samples.

Results

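Plasma cells are antibody factories, and the 37 genes described here encode what makes such a cell and what it needs to export protein. They were chosen by gene symbol, with earlier results of these data known, and fall into 4 roles. Plasma cell identity was covered by 7 genes, endoplasmic reticulum (ER) chaperones and folding enzymes by 16, ER-associated degradation by 5, and the protein translocon with the signal peptidase by 9. All 37 were found among the 19320 genes of the spleen expression table, and all 37 passed the filter on low values, which asked for an RPKM (reads per kilobase of gene at a common sequencing depth) of at least 1 in at least 3 libraries. Of these, 36 reached that level in every library. The exception was Tnfrsf17, with a lowest value of 0.91 RPKM.

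The table held 18 spleen libraries, 3 for each of 6 groups of ICR mice aged 10 weeks, which the study's methods give as male. Con mice were controls on a regular diet. A10 mice were given AOS, alginate oligosaccharide, at 10 mg/kg. This is a mixture of short chains cut from alginate, the cell wall sugar of brown algae. STZ mice were injected with streptozotocin, a toxin of the insulin-producing beta cell used as a model of type 1 diabetes, and STZ-A10 mice received STZ together with AOS at 10 mg/kg. Con-FMT and A10-FMT mice received STZ and then oral microbiota, transplanted from control donors or from donors dosed with AOS at 10 mg/kg. The donors' intestinal content was pooled within each donor group, so the recipients of a group share 1 inoculum. The study's methods describe the 4 groups other than A10 and STZ-A10, for which the labels alone give the treatment, and the route and duration of AOS in these groups are not given in the sources used here. The study's main subject was male fertility in diabetes. Its spleen series was designed around transplanted microbiota and STZ, and the A10 and STZ-A10 libraries add AOS given without a transplant.

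When a B cell becomes a plasma cell, Irf4 and Prdm1 (Blimp-1) switch off the B cell program, and Xbp1, spliced by the ER stress sensor Ern1 (IRE1), enlarges the secretory apparatus. Nascent immunoglobulin chains enter the ER through the Sec61 channel, lose their signal peptide, are folded by Hspa5 (BiP), Hsp90b1 (Grp94) and disulfide isomerases, and are sent to degradation when folding fails. In the spleen, plasma cells lie mainly in the red pulp and in foci outside the follicles, and they are few among B cells, T cells and the erythroid precursors that a mouse spleen also holds. All cells use the same ER machinery at a lower level.

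Several of the 37 genes carry in their promoters the ER stress response element, to which ATF6 with the factor NF-Y and also XBP1 are known to bind. These sequences are shown as a description of members of the chaperone and degradation roles. The genes were chosen for their ER roles, so the share of them with an ER stress element is not an independent result. Promoter windows, from 250 bases before to 50 bases after the gene start, were taken from RefSeq for the build GRCm38.p6 and matched 31 members by symbol. Mzb1, Sec11c, Sec61a1, Ssr2, Manf and Hyou1 had no match. The ERSE, searched on both strands as CCAAT, then 9 bases of any kind, then CCACG, was found in 8 of the 31 members, against 37 of 27025 genes (0.137%). The ERSE-II, searched likewise as ATTGG, 1 base of any kind and CCACG, was found in 2 of the 31, against 12 genes (0.0444%), and no member held both. In the sequences, written 5′ to 3′ on the strand of the gene, capitals mark the fixed letters of the element, and those that begin with CGTGG hold it on the opposite strand.
Hspa5 (chr2:34772010-34772058, plus strand): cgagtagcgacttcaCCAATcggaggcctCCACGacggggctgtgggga
Hsp90b1 (chr10:86705518-86705671, minus strand): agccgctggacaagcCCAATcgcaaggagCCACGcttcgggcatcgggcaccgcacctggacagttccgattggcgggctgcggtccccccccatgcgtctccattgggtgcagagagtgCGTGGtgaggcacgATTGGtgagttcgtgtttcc
Calr (chr8:84847060-84847108, minus strand): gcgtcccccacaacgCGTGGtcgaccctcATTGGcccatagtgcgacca
Canx (chr11:50325785-50325833, minus strand): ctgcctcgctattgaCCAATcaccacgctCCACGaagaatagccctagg
Dnajc3 (chr14:118937812-118937860, plus strand): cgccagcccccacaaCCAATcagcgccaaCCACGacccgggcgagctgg
Pdia6 (chr12:17266476-17266524, plus strand): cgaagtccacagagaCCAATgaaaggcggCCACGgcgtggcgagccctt
Creld2 (chr15:88819505-88819553, plus strand): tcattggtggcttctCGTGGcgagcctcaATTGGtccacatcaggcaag
Derl3 (chr10:75893227-75893275, plus strand): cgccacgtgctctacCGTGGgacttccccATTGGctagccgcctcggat
Herpud1 (chr8:94386362-94386402, plus strand): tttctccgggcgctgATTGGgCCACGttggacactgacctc

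Hsp90b1 held the ERSE at 2 places of its window, and the other 7 genes with an ERSE at 1. All matches lay upstream of the start except that of Dnajb11, which held the ERSE-II within its first transcribed bases, at positions 7 to 17. A match is a run of letters and was not tested for binding.

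**Figure D1:**
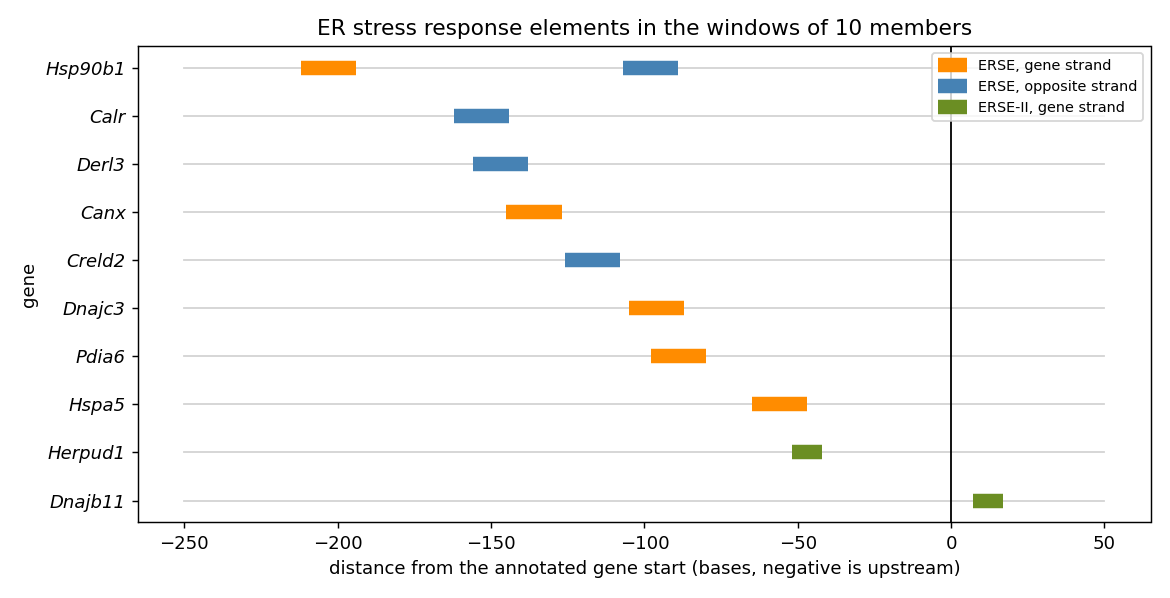
Position of each match to the ERSE or ERSE-II (coloured bars) in the promoter windows of the 10 members that held one, with the distance from the annotated gene start in bases on the horizontal axis and 1 gene per line. The matches upstream of the start lay between 212 and 42 bases before it, and the match of Dnajb11 lay just after it.

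The files hold no read counts. The most frequent low values correspond to about 12900000 to 13800000 reads in a library if each stands for 1 read. This estimate is coarse, and it gave the lower value for every library but A10-FMT replicate 3. On this estimate 3 members, Tnfrsf17, Fkbp11 and Prdm1, had fewer than 100 reads in some library. In the GENCODE annotation of GRCm38, 9 members (Mzb1, Hsp90b1, Dnajb9, Pdia3, Pdia4, Pdia6, Manf, Sec61a1 and Spcs1) have an exon that overlaps another gene, and how reads there were assigned is not given, so their values are less certain. Markers of B cells (14), T cells (11) and red pulp macrophages (12) were detected, none of them at 0 in every library. Some libraries stood apart. Con replicate 1 had the highest summed RPKM of 11 neutrophil progenitor markers, at 6460 against 218 to 1860 in the other 17. In A10-FMT replicate 3 the summed B cell markers were 735 RPKM, against 1840 to 3450 elsewhere. In A10-FMT replicate 2 the sum of 18 exocrine pancreas markers, which are not spleen genes, was 28500 RPKM. Globin genes took 10.4% of the summed RPKM in STZ replicate 1 and 13.7% in STZ-A10 replicate 1, against 17.2% to 42.7% in the other libraries. In bulk tissue, fewer cells of a type and less RNA per cell cannot be told apart.

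Whether the libraries held plasma cells was checked on Jchain, which encodes the chain that joins secreted antibodies and is no member. Jchain lay between 243 and 966 RPKM. The immunoglobulin constant region genes looked for, Ighm and Igkc among them, were not found by symbol among the genes read here, so they could not be analysed.

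In mice without STZ, AOS went with higher levels of all 37 members, beside 8067 of the 12905 genes tested. Of the members, 31 had an unadjusted p under 0.05, all 31 higher in A10, against 5.25% of the 12905 genes tested (limma on log2 of RPKM + 1). None passed the adjusted threshold of 0.05, which 0.00775% of all genes passed, and the smallest adjusted p among the members was 0.125. For 29 of the 37 members every A10 library lay above every Con library, which held for 11.7% of all genes. The median log2 fold change of the members was 0.45, beside 0.046 over all genes tested. Members made up 3 of the 10 genes, 7 of the 50 genes and 18 of the 100 genes with the smallest p. Because the members were chosen with earlier results of these data known, these shares are a description and no independent support.

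Among the identity genes, Eaf2, an elongation-associated factor that is abundant in plasma cells and germinal centre B cells, differed most. Its level was 8.85, 14.5 and 5.14 RPKM in the Con libraries and 43.8, 24.9 and 48.6 RPKM in the A10 libraries. The lowest A10 library thus lay above the highest Con library, with means of 9.51 ± 4.73 and 39.1 ± 12.5 RPKM (SD, n = 3). The log2 fold change was 1.98 (SE 0.355, adjusted p = 0.125).

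Mzb1, an ER cochaperone of B cells and plasma cells that helps to assemble secreted IgM, was at 173, 274 and 181 RPKM in Con and at 485, 333 and 449 RPKM in A10. Sdc1, which encodes the plasma cell surface marker CD138, was at 3.63, 5.77 and 3.24 RPKM in Con and at 8.53, 7.09 and 9.57 RPKM in A10. Both genes separated the groups, and in both the highest Con library was replicate 2. Their log2 fold changes were 1.02 (SE 0.293, adjusted p = 0.488) and 0.87 (SE 0.224, adjusted p = 0.353).

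Xbp1, Prdm1 and Irf4 are the transcription factors of this role. Xbp1 was at 50.1, 62.1 and 53.6 RPKM in Con and at 95.9, 71.5 and 95.7 RPKM in A10. Prdm1 was at 1.51, 2.48 and 1.91 RPKM in Con and at 4.37, 2.91 and 4.33 RPKM in A10. Irf4 was at 15.1, 18.9 and 26.0 RPKM in Con and at 28.4, 22.2 and 31.0 RPKM in A10. The groups were apart for Xbp1 and Prdm1 and overlapped for Irf4, a gene that activated B and T cells also use. The log2 fold changes were 0.65 for Xbp1 (SE 0.203, adjusted p = 0.657), 0.71 for Prdm1 (SE 0.205, adjusted p = 0.488) and 0.44 for Irf4 (SE 0.300, adjusted p = 0.989).

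Tnfrsf17 encodes BCMA, the survival receptor of long-lived plasma cells, and was the member with the lowest level. It was at 1.04, 3.16 and 1.62 RPKM in Con and at 4.65, 3.26 and 5.94 RPKM in A10, so the groups were apart by a narrow margin. Its log2 difference was 0.97 (SE 0.288, adjusted p = 0.570). Over the 7 identity genes, 6 had an unadjusted p under 0.05, and the median log2 fold change was 0.87.

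**Figure D2:**
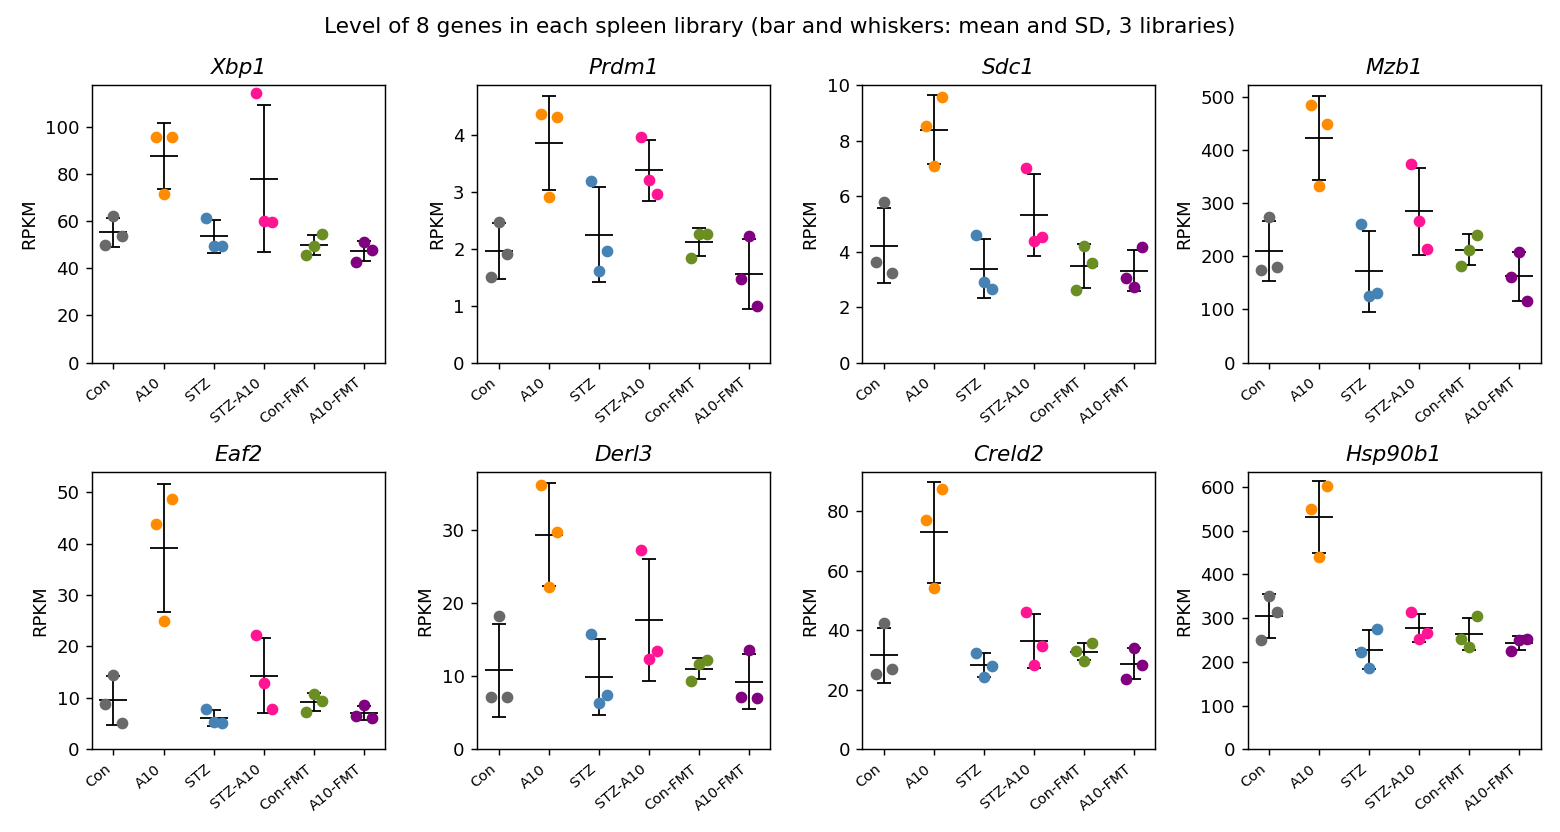
RPKM of 8 of the members in every library, by group (points: libraries, bar and whiskers: mean ± SD, n = 3). For all 8 genes every A10 library lay above every Con library. For Eaf2, Sdc1, Creld2 and Hsp90b1 every A10 library also lay above all libraries of the other 5 groups, in Sdc1 by a narrow margin.

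The chaperones and folding enzymes had a median log2 fold change of 0.46, and 12 of the 16 had an unadjusted p under 0.05. Creld2, an ER protein with disulfide isomerase activity that is induced by ER stress, was at 25.5, 42.3 and 27.1 RPKM in Con and at 77.0, 54.3 and 87.6 RPKM in A10. Its mean of 73.0 ± 17.0 RPKM in A10 compared with 31.6 ± 9.29 RPKM in Con, a log2 difference of 1.19 (SE 0.220, adjusted p = 0.125). Dnajb11 (ERdj3), a cochaperone that delivers unfolded chains to BiP, was at 49.8, 54.6 and 51.7 RPKM in Con and at 77.6, 63.8 and 84.2 RPKM in A10. The Con libraries of Dnajb11 were close together, and its log2 fold change of 0.51 had a small error (SE 0.101, adjusted p = 0.158).

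Hsp90b1, the HSP90 of the ER, was among the most abundant members at 250, 350 and 314 RPKM in Con and 549, 440 and 603 RPKM in A10. Sdf2l1, which works in a complex with Dnajb11 and BiP, was at 25.6, 33.5 and 24.4 RPKM in Con and at 46.1, 36.1 and 45.6 RPKM in A10. Both genes separated the groups. The log2 fold changes were 0.80 (SE 0.167, adjusted p = 0.190) and 0.60 (SE 0.149, adjusted p = 0.350).

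BiP itself differed less. Hspa5 was at 195, 269 and 257 RPKM in Con and at 288, 269 and 320 RPKM in A10. The lowest A10 library thus lay just above the highest Con library. The log2 fold change of Hspa5 was 0.29 (SE 0.139, adjusted p = 0.953). The A10 and Con libraries overlapped for both lectin chaperones, and only Canx was near no difference. Calr had a log2 difference of 0.24 (SE 0.132) and Canx, which recognises the same glycans at the ER membrane, of 0.003 (SE 0.111). Other log2 fold changes in this role were 0.69 for Pdia4 and 0.60 for Pdia6, both disulfide isomerases, 0.22 for the isomerase Pdia3, 0.59 for the secreted ER stress protein Manf, and 1.27 for Fkbp11, a prolyl isomerase abundant in secretory cells. Those of Hyou1, Dnajb9, Dnajc3 and Fkbp2 lay between 0.34 and 0.40.

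Members with and without the response element in their windows were both among those with high and low differences. Those with an ERSE or ERSE-II ran from 0.003 in Canx to 1.46 in Derl3 on the log2 scale.

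All 5 genes of ER-associated degradation had an unadjusted p under 0.05, with a median log2 fold change of 0.52. Derl3, a derlin of the retrotranslocation complex found mainly in secretory cells, was at 7.16, 18.2 and 7.09 RPKM in Con and at 36.2, 22.1 and 29.7 RPKM in A10. Its Con replicate 2 stood well above the other Con libraries and still lay below those of A10. The log2 fold change was 1.46 (SE 0.388, adjusted p = 0.377). Edem1, which marks misfolded glycoproteins for disposal, was at 31.5, 36.3 and 31.0 RPKM in Con and at 57.1, 42.9 and 60.4 RPKM in A10, a log2 difference of 0.67 (SE 0.185, adjusted p = 0.460). Edem2 (0.52), the degradation adaptor Sel1l (0.38) and the ubiquitin-like ER protein Herpud1 (0.35) differed less on the log2 scale.

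The translocon and signal peptidase genes were abundant and closely spaced, with a median log2 fold change of 0.41, and 8 of the 9 had an unadjusted p under 0.05. Sec61a1, the pore of the channel, was at 38.3, 46.5 and 45.3 RPKM in Con and at 60.4, 51.4 and 63.2 RPKM in A10. Ssr4, a subunit of the TRAP complex that sits on the channel, was at 97.1, 103 and 84.3 RPKM in Con and at 133, 117 and 127 RPKM in A10. Both genes separated the groups. Their log2 fold changes were 0.42 (SE 0.111, adjusted p = 0.377) and 0.41 (SE 0.138, adjusted p = 0.697). Sec61b, another channel subunit, had a log2 difference of 0.45 (SE 0.114, adjusted p = 0.350). The other TRAP subunits ran from 0.15 (Ssr1) to 0.51 (Ssr2), and the signal peptidase genes Sec11c, Spcs1 and Spcs2 from 0.27 to 0.42.

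The count of 31 members at an unadjusted p under 0.05 was 23 without Con replicate 1 and 34 without A10 replicate 2. Without Con replicate 2, 2 members passed the adjusted threshold, and without A10 replicate 2, 3 did. Leaving out either of the other A10 libraries had the opposite effect on the adjusted p. Eaf2, Creld2 and Dnajb11 were at 0.543, 0.62 and 0.631 without A10 replicate 1, and each at 0.987 without A10 replicate 3. With globin genes removed and the libraries rescaled, the median log2 fold change of the members was 0.39.

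Marker values of other cells were read beside this difference. All 14 B cell markers were higher in A10, with a median log2 fold change of 0.16, and 1 had an unadjusted p under 0.05. Their summed RPKM was 2010 to 3450 in Con and 2780 to 3140 in A10. All 11 T cell markers were higher, with a median of 0.42, and their sums were 216 to 372 RPKM in Con and 401 to 447 RPKM in A10. The exocrine pancreas, another tissue rich in ER, was at 31.1 to 2540 RPKM in Con and 60.6 to 988 RPKM in A10, with 0 of 18 markers past an unadjusted p of 0.05. All 11 neutrophil progenitor markers were lower in A10 at an unadjusted p under 0.05, with a median log2 fold change of -2.01. The groups overlapped for each of them. Their sums were 6460, 1860 and 328 RPKM in Con and 263 to 635 RPKM in A10. Of 14 erythroid markers, 13 were lower, at a median of -0.54, 5 of them with every A10 library below every Con library and 0 at an unadjusted p under 0.05. Of 14 liver markers, 11 were lower, at a median of -1.24, with 3 lower and 1 higher at an unadjusted p under 0.05. The part of all these markers in the result was not tested.

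Genes of the same pathways that are not members were read from separate lists, also chosen with earlier results of these data known. Jchain was at 356, 759 and 352 RPKM in Con and at 966, 838 and 903 RPKM in A10, a log2 difference of 0.98 (SE 0.326, adjusted p = 0.669). Of 20 other plasma cell genes, 7 were higher and 0 lower at an unadjusted p under 0.05, with a median log2 fold change of 0.26. The smallest p belonged to Lman1, a cargo receptor for ER export (0.62, adjusted p = 0.350), and Txndc5, a disulfide isomerase (0.87, adjusted p = 0.362).

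Of 24 other translocon, signal peptidase and oligosaccharyltransferase genes, 23 were higher in A10 and 6 had an unadjusted p under 0.05, with a median of 0.19 on the log2 scale. The signal recognition particle receptor subunit Srprb (0.41) and the oligosaccharyltransferase subunit Ostc (0.34) had the smallest p. Of 20 other folding and degradation genes, 2 had an unadjusted p under 0.05, namely the KDEL receptor Kdelr2 (0.31) and the degradation enzyme Ube2j1 (0.29), and the median was 0.17. The sensors of the unfolded protein response and the targets of its PERK-ATF4 branch stood apart from these, with a median of 0.001 and 1 of 15 at an unadjusted p under 0.05. That gene was Ern1 (0.35), the sensor that splices Xbp1, followed by Atf6b (0.24).

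**Figure D3:**
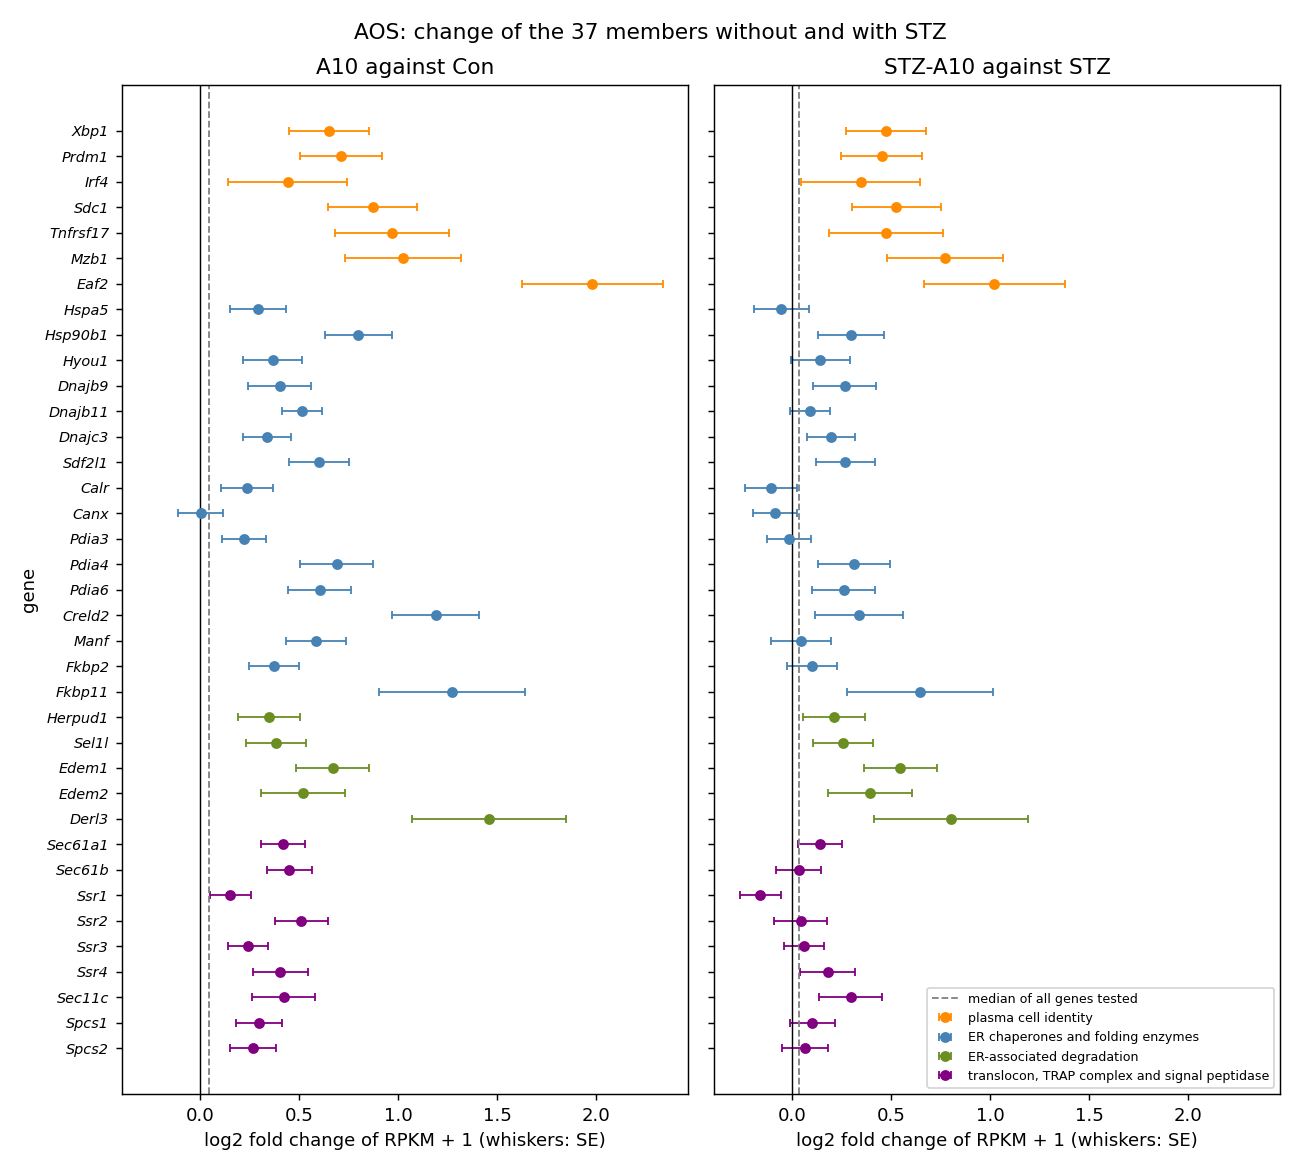
Log2 fold change of RPKM + 1 with its standard error for each of the 37 members, by role, in A10 against Con (left) and STZ-A10 against STZ (right), with the median of all genes tested as a dashed line. All 37 points lay above 0 on the left and 32 on the right.

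In mice given STZ, AOS went with a smaller and less even difference. Against STZ, 32 of the 37 members were higher in STZ-A10, beside 7576 of the 12905 genes tested. The median log2 fold change was 0.26 for the members and 0.034 over all genes. None passed the adjusted threshold, which 0.00775% of all genes passed, and the smallest adjusted p was 0.996. At an unadjusted p under 0.05 there were 6 members, all higher, against 2.93% of all genes. Only Dnajb9 had every STZ-A10 library above every STZ library, beside 3.29% of all genes, and Ssr1 lay the other way.

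The 6 members were Edem1, Eaf2, Mzb1, Sdc1, Xbp1 and Prdm1, of which 5 belong to plasma cell identity. Edem1 was at 30.3, 22.4 and 24.6 RPKM in STZ and at 49.6, 36.0 and 30.2 RPKM in STZ-A10. Eaf2 was at 7.86, 5.28 and 5.10 RPKM in STZ and at 22.2, 12.9 and 7.81 RPKM in STZ-A10. Mzb1 was at 260, 125 and 130 RPKM in STZ and at 373, 266 and 213 RPKM in STZ-A10. In all 3 genes replicate 1 was the highest library of both groups, and the groups overlapped through STZ replicate 1. The log2 fold changes were 0.55 for Edem1 (SE 0.185), 1.02 for Eaf2 (SE 0.355) and 0.77 for Mzb1 (SE 0.293), each with an adjusted p of 0.996.

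Xbp1 was at 61.5, 49.5 and 49.5 RPKM in STZ and at 114, 60.2 and 59.8 RPKM in STZ-A10, so that a single library stood far above the rest. Prdm1 was at 3.19, 1.61 and 1.96 RPKM in STZ and at 3.98, 3.21 and 2.96 RPKM in STZ-A10. Sdc1 was at 4.61, 2.90 and 2.64 RPKM in STZ and at 7.01, 4.39 and 4.51 RPKM in STZ-A10. The highest STZ library reached into the STZ-A10 range in each of these genes. Tnfrsf17 and Irf4 had log2 fold changes of 0.47 (SE 0.288) and 0.35 (SE 0.300).

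The secretory apparatus differed little. The median log2 fold change was 0.17 over the chaperones and folding enzymes and 0.067 over the translocon role, and 0 of those 25 genes had an unadjusted p under 0.05. Hspa5 was at 202, 201 and 273 RPKM in STZ and at 217, 204 and 224 RPKM in STZ-A10. Sec61a1 was at 48.2, 41.8 and 42.3 RPKM in STZ and at 54.8, 44.7 and 46.9 RPKM in STZ-A10, and Ssr4 at 117, 92.6 and 85.4 RPKM and at 135, 108 and 92.6 RPKM. The groups overlapped for all 3 genes. Degradation genes had a median of 0.40, with Derl3 at 15.8, 6.28 and 7.39 RPKM in STZ and at 27.3, 12.3 and 13.5 RPKM in STZ-A10.

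Single libraries decided these counts. The 6 members at an unadjusted p under 0.05 became 0 without STZ-A10 replicate 1, 2 without STZ replicate 2, 10 without STZ-A10 replicate 3 and 14 without STZ replicate 1. The median log2 fold change was 0.14 without STZ-A10 replicate 1. The summed B cell markers were 3410, 1840 and 1900 RPKM in STZ and 3150, 2620 and 2090 RPKM in STZ-A10, highest in replicate 1 of both groups. All 18 exocrine pancreas markers were higher in STZ-A10, at a median log2 fold change of 1.42, with sums of 7570, 3570 and 1670 RPKM in STZ and 7730, 8270 and 12100 RPKM in STZ-A10. None of the 18 had an unadjusted p under 0.05, but for 10 of them every STZ-A10 library lay above every STZ library. All 14 B cell markers were higher in STZ-A10, at a median log2 fold change of 0.21 beside 0.26 for the members, and 0 had an unadjusted p under 0.05. All 12 proliferating cell markers were lower, 0 of them at an unadjusted p under 0.05, and of 14 erythroid markers 10 were lower, 3 of them at that level. The part of these markers in the result was not tested.

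Outside the members, Jchain was at 478, 250 and 243 RPKM in STZ and at 748, 490 and 431 RPKM in STZ-A10, a log2 difference of 0.81 (SE 0.326, adjusted p = 0.996). Of the 20 other plasma cell genes, 19 were higher and 1 had an unadjusted p under 0.05. That gene was Cd93, a receptor kept by long-lived plasma cells and also present on endothelium (0.35), and Txndc5 followed (0.46). Of the 15 sensor and PERK-ATF4 genes, 5 were lower and 1 higher at an unadjusted p under 0.05. Ddit3 (CHOP) had a log2 difference of -0.37 and Asns, an amino acid synthetase gene driven by ATF4, of -0.88, both with an adjusted p of 0.996. Of the other translocon genes (24) and the other folding and degradation genes (20), 0 had an unadjusted p under 0.05, and the medians were -0.016 and 0.066.

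Averaged over mice with and without STZ, the AOS difference was positive for 35 of the 37 members, beside 8010 of the 12905 genes tested. The median log2 fold change was 0.32 for the members and 0.039 over all genes. The averaged difference and the comparisons above use the same libraries. Past the adjusted threshold there were 0 members, beside 0.00775% of the table. Past an unadjusted p of 0.05 there were 30, beside 5.32%. The smallest p belonged to Eaf2 at 1.50 (SE 0.251, adjusted p = 0.0986), Creld2 at 0.76 (SE 0.156, adjusted p = 0.192) and Edem1 at 0.61 (SE 0.131, adjusted p = 0.212). The exceptions in direction were Canx (-0.04) and Ssr1 (-0.004). Without Con replicate 2, 2 members passed the adjusted threshold, and without STZ-A10 replicate 3, 1 did.

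The difference between the AOS differences was tested as the interaction of STZ and AOS. For all 37 members the interaction was negative, beside 6938 of the 12905 genes tested. The median was -0.27 on the log2 scale for the members and -0.018 over all genes. The AOS difference was thus lower in mice given STZ, and for 5 members, Ssr1 and Canx among them, it was below 0 there. None of the members passed the adjusted threshold, as was so over the whole table (0.0%). An unadjusted p under 0.05 was found for 7 members and for 2.86% of the genes tested. The smallest p belonged to Dnajb11 (-0.42, SE 0.143), Creld2 (-0.85, SE 0.312) and Sec61b (-0.42, SE 0.162), each with an adjusted p of 1.0. Dnajb11 was at 47.8, 50.02 and 51.2 RPKM in STZ and at 55.9, 48.7 and 54.6 RPKM in STZ-A10, and Creld2 at 32.4, 24.3 and 28.1 RPKM and at 46.0, 28.3 and 34.8 RPKM. In both genes the STZ-A10 libraries overlapped those of STZ and lay below all A10 libraries. By role, 4 of the 7 were chaperones and folding enzymes, 3 belonged to the translocon role, and none to plasma cell identity, where the median was -0.26. The count of 7 fell to 2 without Con replicate 3, A10 replicate 3, STZ replicate 1 or STZ-A10 replicate 3, to 4 without A10 replicate 1, and was 10 without Con replicate 2.

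STZ alone was compared with Con next. Against Con, 29 members were lower in STZ and 8 higher, beside 6762 of the 12905 genes tested lower. The median log2 fold change was -0.095 for the members and -0.011 over all genes. None passed the adjusted threshold, which 0.163% of the table passed, and 3 had an unadjusted p under 0.05, beside 11.1% of the table. All 16 chaperones and folding enzymes were lower, while the median of the translocon role was -0.001.

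Pdia3, the isomerase that folds glycoproteins together with Calr and Canx, was at 173, 198 and 208 RPKM in Con and at 153, 136 and 183 RPKM in STZ. Hsp90b1 was at 223, 185 and 274 RPKM in STZ and Sdf2l1 at 21.7, 19.8 and 23.5 RPKM. The STZ libraries lay below all Con libraries for Sdf2l1 and overlapped them for Pdia3 and Hsp90b1. The log2 fold changes were -0.30 for Pdia3 (SE 0.111, adjusted p = 0.285), -0.42 for Hsp90b1 (SE 0.167, adjusted p = 0.323) and -0.34 for Sdf2l1 (SE 0.149, adjusted p = 0.411). Without STZ replicate 2 no member had an unadjusted p under 0.05, without Con replicate 2, 1 did, and without Con replicate 1, 6 did. The median of the members was 0.014 without Con replicate 2.

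The PERK-ATF4 branch of the stress response was read beside these genes. Of the 15 sensor and PERK-ATF4 genes, 4 were higher in STZ at an unadjusted p under 0.05 and 0 lower. Trib3, a pseudokinase induced by ATF4 and CHOP, had a log2 difference of 1.20 (SE 0.232, adjusted p = 0.0539) and Asns of 1.09 (SE 0.292, adjusted p = 0.115). Of the other plasma cell genes 0 had an unadjusted p under 0.05, with a median of -0.18. Exocrine pancreas markers were higher in STZ in 18 of 18 cases, 8 of them at an unadjusted p under 0.05, and 12 of 14 liver markers were lower at that level. Of 14 B cell markers, 12 were lower in STZ, at a median log2 fold change of -0.29, with 4 at an unadjusted p under 0.05. All 12 red pulp macrophage markers were higher, 9 of them at an unadjusted p under 0.05, and all 11 neutrophil progenitor markers were lower, 10 of them at that level. The STZ libraries lay above all Con libraries for 7 of the red pulp macrophage markers. They lay below all Con libraries for 0 of the neutrophil progenitor markers. The part of these tissues and cells in the result was not tested.

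In mice given transplanted microbiota, the members lay near the STZ level. Con-FMT against STZ gave 28 members higher and 9 lower, beside 6507 of the 12905 genes tested higher. The median log2 fold change was 0.058 for the members and 0.002 over all genes. None passed the adjusted threshold (0.00775% of all genes did), and 1 had an unadjusted p under 0.05 (5.24% of all genes). That member was Pdia6, at 78.3, 53.4 and 81.5 RPKM in STZ and at 95.1, 82.4 and 93.6 RPKM in Con-FMT. The Con-FMT libraries lay above all STZ libraries, with a log2 difference of 0.36 (SE 0.159, adjusted p = 0.935). Sdf2l1 at 0.28 (SE 0.149) and Eaf2 at 0.53 (SE 0.355) followed. Without STZ replicate 2, Con-FMT replicate 1 or Con-FMT replicate 3 the count was 0, and without STZ replicate 1, STZ replicate 3 or Con-FMT replicate 2 it was 2.

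A10-FMT against STZ gave 19 members higher and 18 lower, beside 9329 of the 12905 genes tested lower. The members' median was 0.004 on the log2 scale. Over all genes the median was -0.15 here, and after centring each library on its median the members' median was 0.18. No member passed the adjusted threshold (0.00775% over the table). At an unadjusted p under 0.05 there were 0 members, against 17.2% over the table. The smallest p belonged to Sel1l at -0.31 (SE 0.151), Herpud1 at -0.31 (SE 0.156) and Irf4 at -0.58 (SE 0.300). Irf4 was at 30.9, 17.0 and 15.1 RPKM in STZ and at 15.3, 17.3 and 8.17 RPKM in A10-FMT, lowest in the A10-FMT replicate 3 that was also low in B cell markers. Without A10-FMT replicate 2, 4 members had an unadjusted p under 0.05, without STZ replicate 3, 2 did, and without STZ replicate 2, 1 did. Of 14 liver markers, 12 were higher in A10-FMT at an unadjusted p under 0.05 and 0 lower. Of 12 red pulp macrophage markers, 8 were lower at that level and 0 higher. The part of these markers in the result was not tested.

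The transplants themselves were compared as A10-FMT against Con-FMT. Of the members, 30 were lower in A10-FMT and 7 higher, beside 9162 of the 12905 genes tested lower. The members' median log2 fold change was -0.078. Over all genes the median was -0.17, and centring on library medians turned the members' median to 0.096, so the direction depends on the scaling. None of the members or of all genes (0.0%) passed the adjusted threshold. An unadjusted p under 0.05 was found for 2 members and for 23.6% of all genes. Edem1 was at 28.4, 30.3 and 32.9 RPKM in Con-FMT and at 21.9, 28.4 and 19.0 RPKM in A10-FMT, a log2 difference of -0.40 (SE 0.185, adjusted p = 0.208). Dnajc3, a cochaperone that also restrains the kinase PERK, was at 23.9, 21.2 and 23.2 RPKM in Con-FMT and at 17.7, 20.3 and 18.4 RPKM in A10-FMT, a log2 difference of -0.26 (SE 0.121, adjusted p = 0.209). The groups were apart for Dnajc3 and met at the edge for Edem1. Edem2 followed at -0.42 (SE 0.213, adjusted p = 0.227).

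The 2 members became 5 without A10-FMT replicate 2, 0 without A10-FMT replicate 1, A10-FMT replicate 3, Con-FMT replicate 1 or Con-FMT replicate 3, and 1 without Con-FMT replicate 2. All 14 B cell markers were lower in A10-FMT, at a median log2 fold change of -0.76, and all 11 T cell markers at -0.96. Of 14 liver markers, 10 were higher at an unadjusted p under 0.05. The summed B cell markers were 2280, 2550 and 735 RPKM in A10-FMT and 2880, 2810 and 2750 RPKM in Con-FMT, and their part in the result was not tested. Of the 20 other plasma cell genes, 6 were lower at an unadjusted p under 0.05, with Cd28, a T cell costimulatory receptor that plasma cells also carry, at -0.81 and the B cell coactivator Pou2af1 at -0.79. Jchain was at 263, 476 and 462 RPKM in Con-FMT and at 287, 372 and 285 RPKM in A10-FMT, and the groups overlapped.

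Identity genes in the transplant groups had no clear separation. Mzb1 was at 182, 212 and 240 RPKM in Con-FMT and at 162, 207 and 117 RPKM in A10-FMT. Eaf2 was at 7.31, 10.8 and 9.42 RPKM in Con-FMT and at 6.44, 8.52 and 6.09 RPKM in A10-FMT. Xbp1 was at 45.9, 49.3 and 54.6 RPKM in Con-FMT and at 42.8, 51.1 and 47.8 RPKM in A10-FMT. All 3 genes had a lower mean in A10-FMT with overlapping libraries.

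Sdc1, Tnfrsf17 and Prdm1 had low RNA levels in both transplant groups. Their means were also low in Con, at 4.21, 1.94 and 1.97 RPKM, and in STZ, at 3.38, 1.56 and 2.25 RPKM. Sdc1 was at 2.62, 4.20 and 3.58 RPKM in Con-FMT and at 3.03, 2.74 and 4.15 RPKM in A10-FMT. Tnfrsf17 was at 1.25, 1.58 and 1.89 RPKM and at 1.23, 1.67 and 1.61 RPKM, and Prdm1 at 1.84, 2.27 and 2.27 RPKM and at 1.47, 2.22 and 1.00 RPKM. The highest of these 12 values for Sdc1 and Tnfrsf17 lay below every A10 library of the same gene.

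For Hspa5, Sec61a1, Ssr4 and Derl3 the means of the transplant groups differed by less than the larger of their SDs. Hspa5 was at 227, 209 and 238 RPKM in Con-FMT and at 230, 231 and 269 RPKM in A10-FMT, Sec61a1 at 41.6, 41.6 and 45.0 RPKM and at 37.2, 39.9 and 43.2 RPKM. Ssr4 was at 95.1, 92.6 and 107 RPKM and at 103, 103 and 110 RPKM, and Derl3 at 9.33, 11.6 and 12.1 RPKM and at 7.13, 13.6 and 7.02 RPKM. The groups overlapped for all 4 genes, with Hspa5 and Ssr4 higher on average in A10-FMT and the others lower. Within A10-FMT, Derl3 was highest in replicate 2, the library with the highest sum of exocrine pancreas markers. Hspa5, Sec61a1 and Ssr4 were highest in replicate 3. The part of pancreas RNA in these values was not tested.

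**Figure D4:**
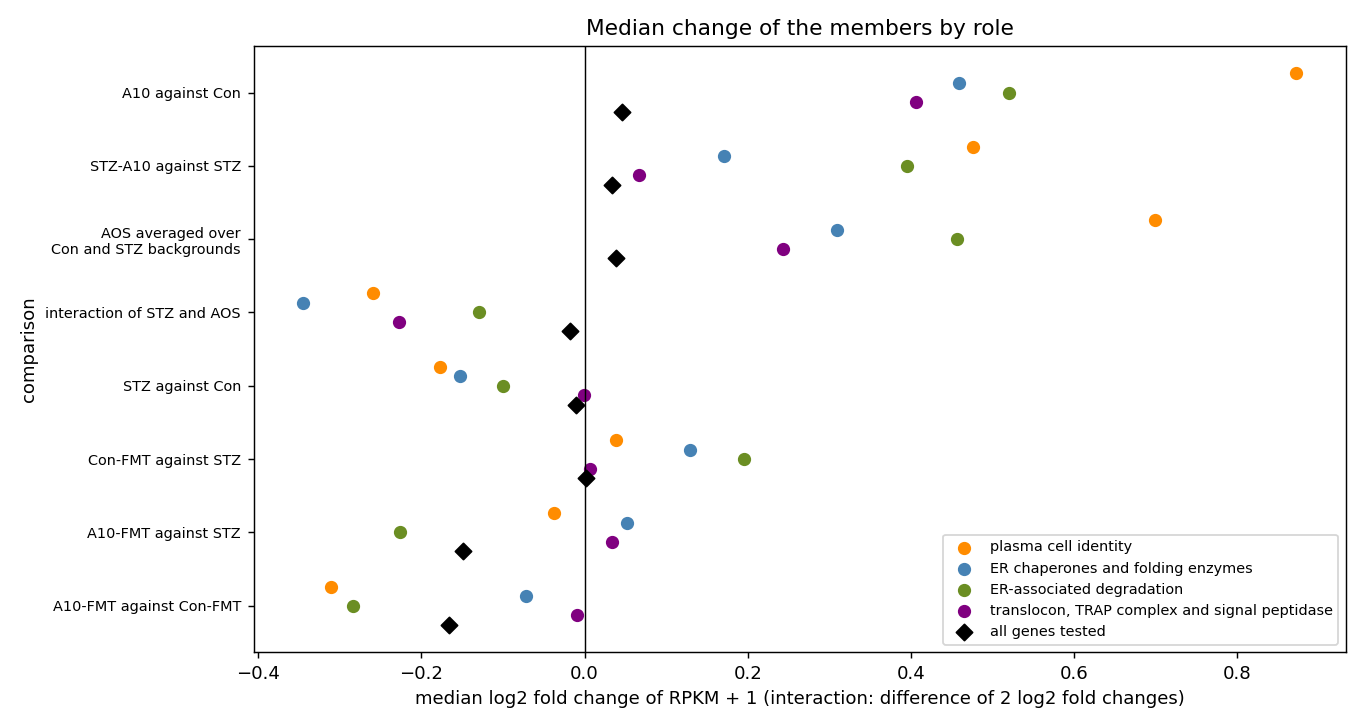
Median log2 fold change of RPKM + 1 over the members of each role (circles) and over all genes tested (black diamonds) in the 8 comparisons, several of which share libraries. The identity genes were at 0.87 in A10 against Con and 0.48 in STZ-A10 against STZ, and at -0.31 in A10-FMT against Con-FMT.

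Across the 6 groups, A10 had the highest mean in 35 of the 37 members, the exceptions being Herpud1, highest in STZ-A10, and Ssr1, highest in STZ. STZ-A10 was the second highest in 23 members. The lowest mean belonged to A10-FMT in 18 members, to STZ in 12, to STZ-A10 in 4 and to Con in 3. Summed over the 7 identity genes, Con libraries reached 253 to 381 RPKM and A10 libraries 465 to 670 RPKM. The sums were 202 to 370 RPKM for STZ, 309 to 560 RPKM for STZ-A10, 258 to 333 RPKM for Con-FMT and 185 to 291 RPKM for A10-FMT. The A10 libraries thus lay above all Con, STZ and transplant libraries, and STZ-A10 overlapped with its neighbours on both sides. Mzb1 made up most of this sum.

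The same picture held with each member given equal weight. The median over the 37 members of the log2 level, taken relative to the Con mean, was 0.32 to 0.61 in the A10 libraries and no higher than 0.34 in any other library. The other ranges were -0.14 to 0.18 for Con, -0.26 to 0.091 for STZ, -0.059 to 0.34 for STZ-A10, -0.053 to 0.064 for Con-FMT and -0.25 to -0.045 for A10-FMT. The lowest A10 library (0.32) lay just below the highest STZ-A10 library (0.34). Within Con, replicate 2 was the highest by this median, and it was also the highest Con library for all 7 identity genes but Irf4.

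**Figure D5:**
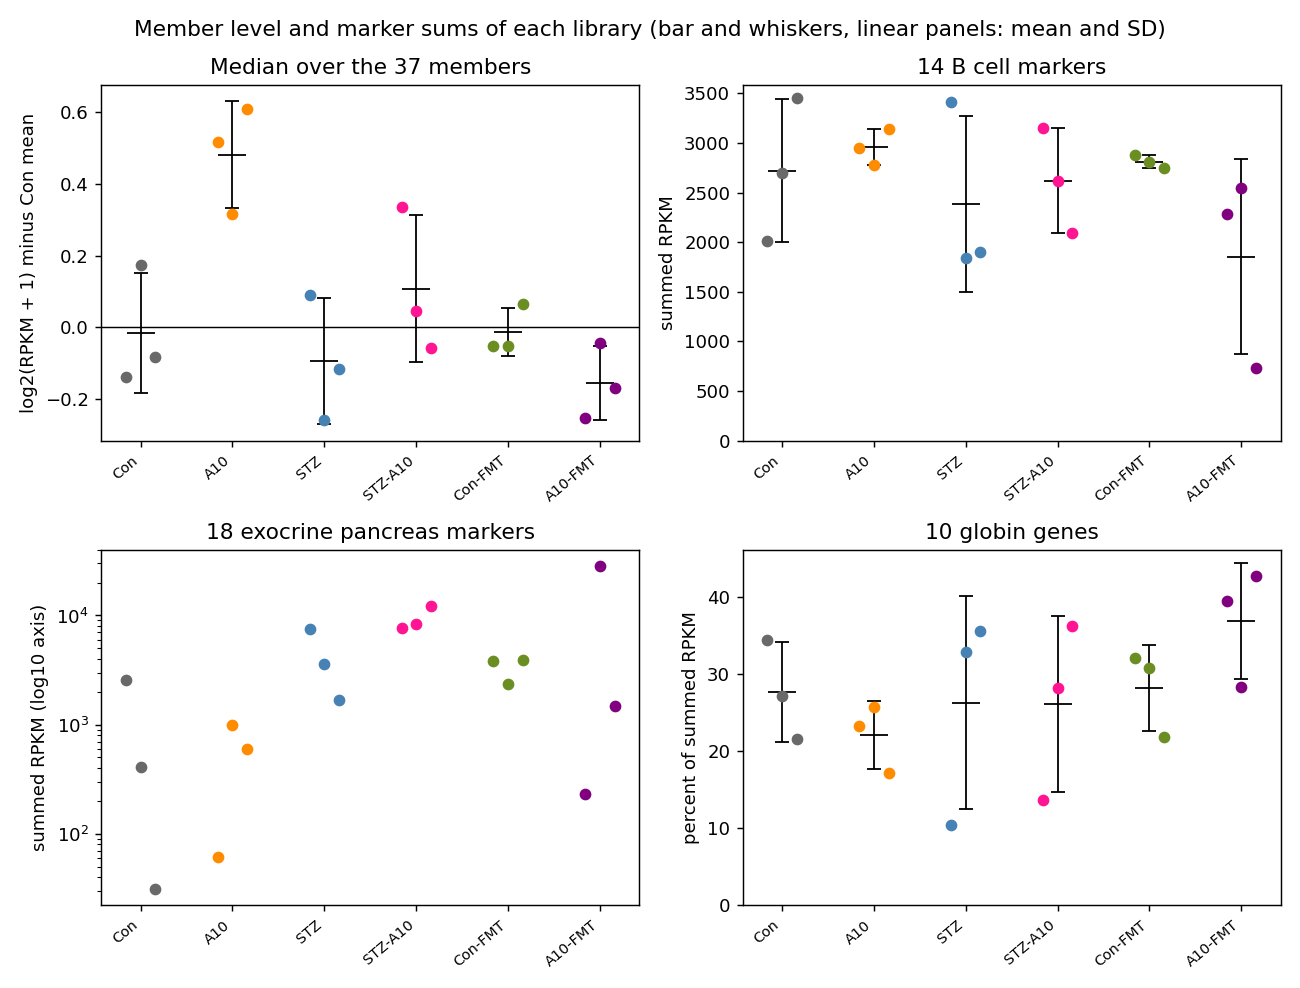
Each library's median over the 37 members of log2(RPKM + 1) minus the Con mean (top left), and its summed RPKM of B cell markers, summed RPKM of exocrine pancreas markers on a log10 axis and globin percent. Points are libraries and bars with whiskers are mean ± SD (n = 3). The A10 libraries sit at 0.32 to 0.61 in the first panel. Their B cell sums were 2780 to 3140 RPKM, beside 2010 to 3450 RPKM in Con. T cell sums, which are not drawn, were 401 to 447 RPKM in A10 and 216 to 372 RPKM in Con. The part of these cells in the result was not tested.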

How the data were processed

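Poly(A)-enriched RNA of 18 spleen libraries was read on a HiSeq sequencer. The authors deposited RPKM values, made according to the study's methods from reads mapped with SOAPaligner. The submitters' processing notes name Bowtie 0.12.2 and the build mm10. The annotation release is not given in the sources used here and neither is the use of strand. No read counts were used, so no counting interval was computed.

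Values were tested as log2(RPKM + 1) with limma 3.58.1 (trend) in R 4.3.3. Of the 19326 lines, 6 with 3 repeated names were left out. Genes with an RPKM of at least 1 in at least 3 libraries were kept (12905), and all 18 libraries entered 1 model with a coefficient per group. P-values are two-sided and adjusted by Benjamini-Hochberg over all 12905 genes. Fold changes of low genes are understated by the pseudocount. An unadjusted p under 0.05 is a description, not a call. The labels do not tie libraries to animals, so p-values measure the spread between these libraries, which may be partly technical.

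The members and lists were chosen with earlier results of these data known. Named members are those past the adjusted threshold or else the 3 with the smallest p in a comparison, with 11 others chosen by role. From other lists, those shown are the 2 with the smallest p. The test was run on simulated data with known changes. Alternatives were another pseudocount, other filters, quantile normalization, median centring, removal of globin genes, array weights, fits of the compared groups alone, the study's threshold, a replicate block and leaving out each library.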

Additional observations from a re-analysis of the deposited data

How the results depend on the processing

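Directions held in most alternatives, and adjusted calls depended on how libraries were weighted. With array weights, whose estimation did not converge fully, the members past the adjusted threshold numbered 33 in A10 against Con, 16 in STZ-A10 against STZ, 31 for the averaged AOS difference, 3 for the interaction, 19 in A10-FMT against Con-FMT, 14 in A10-FMT against STZ, 15 in Con-FMT against STZ and 32 in STZ against Con, against 0 in each as reported, and the cause was not tested. With globin genes removed, 1 member passed for the averaged AOS difference. Leaving out 1 library gave 0 to 3 members in A10 against Con and 0 to 2 for the averaged difference. Centring each library on its median moved the members' median log2 fold change to 0.096 in A10-FMT against Con-FMT and to 0.18 in A10-FMT against STZ. The other 135 counts of adjusted calls, 122 medians and 391 fold changes of named members stayed on their side of the threshold or within the spread of libraries, and 29 fold changes passed the threshold only under an alternative. The study's threshold gave 0 members in every comparison.

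Counts at an unadjusted p under 0.05, chosen as a measure after the data were seen, moved with single libraries and with array weights. With array weights they ran from 7 for the interaction to 34 in A10 against Con, and in STZ against Con the count of 3 became 33, beside 0 to 6 when 1 library was left out. Over all groups, the deviations of same-numbered libraries had a median correlation near 0 (45 pairs, r from -0.39 to 0.57, median 0.044). Globin percent rose with the replicate number in STZ (10.4, 32.8 and 35.6) and STZ-A10 (13.7, 28.2 and 36.2), and in no other group. Whether the numbers pair the libraries of these groups was not tested. With a replicate block shared by all groups, 0 members passed the adjusted threshold in A10 against Con and 31 had an unadjusted p under 0.05. In STZ-A10 against STZ the same block gave 0 and 5 members. A block shared by all groups cannot tell whether the numbers pair the libraries of STZ and STZ-A10 alone. Depth limits the low members most, above all Tnfrsf17, with about 9.6 reads in the library where its RPKM was lowest.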
